A study of Mus musculus with 12 samples.

Results

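The genes whose symbol starts with Nduf, 44 of the 18193 genes with a probe set of their own, were followed across wild-type (WT) and Nos2-/- bone marrow-derived macrophages (BMDMs), resting or activated with LPS and IFNγ. They comprise 34 subunits of respiratory complex I (6 catalytic core and 28 accessory), 8 assembly factors named Ndufaf, and a pair that carries the Nduf name without being counted here as complex I, Ndufa4, now placed in complex IV, and its paralogue Ndufa4l2. Each gene was represented by the probe set, among those annotated to that gene alone, with the highest mean signal over the 12 Affymetrix arrays. Values are log2 signals, so a difference of 1 is a doubling. Signals of different probe sets are set beside each other only as a rough guide to bright and dim ones.

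The study asked how nitric oxide from NOS2 shapes mitochondrial metabolism in inflammatory macrophages. The 4 groups, with 3 arrays each labelled as biological replicates, were Nos2-/- stimulated, WT stimulated, Nos2-/- untreated and WT untreated. Stimulated cells received 100 ng/mL LPS and 50 ng/mL IFNγ for 8 h, and untreated cells received PBS according to the methods. WT cells came from C57BL/6 mice and Nos2-/- cells from B6.129P2-Nos2tm1Lau/J mice. These are a constitutive knockout on a C57BL/6 background, so every cell type of the donor carried the targeted gene. Donors were 6 to 10 weeks old, and all marrow was differentiated with M-CSF. Whether each replicate was a separate mouse is not stated beyond the label, so p-values measure the spread between these samples.

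Complex I, NADH:ubiquinone oxidoreductase, is the largest enzyme of the respiratory chain. Its core subunits carry the flavin and the iron-sulfur clusters that pass electrons from NADH to ubiquinone, its membrane arm, partly encoded by mitochondrial DNA, pumps protons, and the accessory subunits surround and stabilise both arms. Assembly factors join the modules and then leave. In macrophages the enzyme is also a source of superoxide when electrons run in reverse, and its activity falls during inflammatory activation.

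Array medians lay between 5.14 and 5.21, and arrays of a group correlated at 0.996 or higher over all probe sets. The macrophage markers averaged between 12.52 and 12.53 in Nos2-/- stimulated, 12.53 and 12.58 in WT stimulated, 12.51 and 12.60 in Nos2-/- untreated and 12.56 and 12.61 in WT untreated arrays (9 genes, Lyz2, Csf1r, Cd68 and Adgre1 among them). That mean hides opposite changes, since after stimulation 2 of 9 were higher and 6 of 9 lower in each genotype. The Fc receptor gene Fcgr1 rose by 1.27 in Nos2-/- and 1.24 in WT cells and Cd14 by 0.76 and 0.79, while Cd68 changed by -0.91 and -0.87, Adgre1 by -0.33 and -0.32 and Lyz2 by -0.27 and -0.24. The 9 neutrophil markers averaged 6.90 to 7.06 and 6.85 to 6.97 in Nos2-/- and WT stimulated arrays, against 6.19 to 6.59 and 6.10 to 6.44 in Nos2-/- and WT untreated arrays, with 3 of 9 higher after stimulation in Nos2-/- and 4 of 9 in WT cells. S100a8, which activated macrophages also make, led them, with a rise of 3.57 in Nos2-/- and 3.39 in WT cells. The granule genes differed in level, and Mpo, Elane and Prtn3 averaged from 4.60 to 5.53 in the 4 groups. Ltf averaged from 6.22 to 6.43, Ngp from 8.01 to 8.34 and S100a9 from 8.39 to 9.07. Camp averaged 7.15 in Nos2-/- stimulated and 7.09 in WT stimulated cells, against 6.19 in Nos2-/- untreated and 6.27 in WT untreated cells. Lists for T and NK cells, B cells, dendritic cells and fibroblasts averaged at most 5.19 on any array, and the erythroid and megakaryocyte list 6.21 to 6.58. Of these lists, after stimulation in Nos2-/- and then WT cells, 1 and 1 of 6 T and NK, 1 and 3 of 6 B cell, 1 and 4 of 7 dendritic cell, 3 and 4 of 8 fibroblast, and 1 and 1 of 7 erythroid and megakaryocyte genes were higher, and 1 gene of the B cell and 1 of the erythroid list were lower in each genotype. Over all genes, 26.3% were called higher and 28.2% lower after stimulation in Nos2-/- cells, and 29.6% and 28.4% in WT cells. These shares are the background for every marker count above. The part of other cells in the results was not tested. The Nos2 transcript averaged 7.69 ± 0.22 in Nos2-/- stimulated and 9.73 ± 0.09 in WT stimulated cells (SD, n = 3 each), against 5.31 ± 0.14 in Nos2-/- untreated and 5.50 ± 0.14 in WT untreated cells. Since the place of its probe set relative to the deleted exons is not given, this signal does not check the genotype.

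Stimulation lowered most complex I transcripts in both genotypes. In Nos2-/- cells 31 of 34 subunits fell, 2 rose (Ndufb1 and Ndufs4) and 1 was not called, at an adjusted p under 0.05 (limma, Benjamini-Hochberg over all 18193 genes). In WT cells 28 fell, the same 2 genes rose, and 4 were not called. Over all genes, 28.2% fell and 26.3% rose in Nos2-/- cells, and 28.4% fell and 29.6% rose in WT cells. Under a rule of at least 1.5-fold with an adjusted p under 0.5, 17 of 34 subunits fell in Nos2-/- cells (17.2% of all genes) and 12 of 34 in WT cells (16.9% of all genes). The median subunit changed by -0.59 in Nos2-/- and -0.50 in WT cells, while the median of all genes changed by 0.05 in Nos2-/- and 0.08 in WT cells.

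The subunits are bright genes, which bears on that background. Apart from Ndufb4, their mean signals lay between the percentiles 68.9 and 98.4 of all genes. Among the 9097 genes at or over the median signal, 48.7% fell in Nos2-/- and 49.5% in WT cells, and their median changed by -0.14 in Nos2-/- and -0.15 in WT cells. Signals of the stimulated and untreated arrays did not overlap for 33 of 34 subunits in Nos2-/- cells, compared with 60.5% of all genes, nor for 34 of 34 in WT cells, compared with 65.1% of all genes. Because whole cultures were measured, fewer cells of a type and less RNA per cell cannot be told apart.

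**Figure D1:**
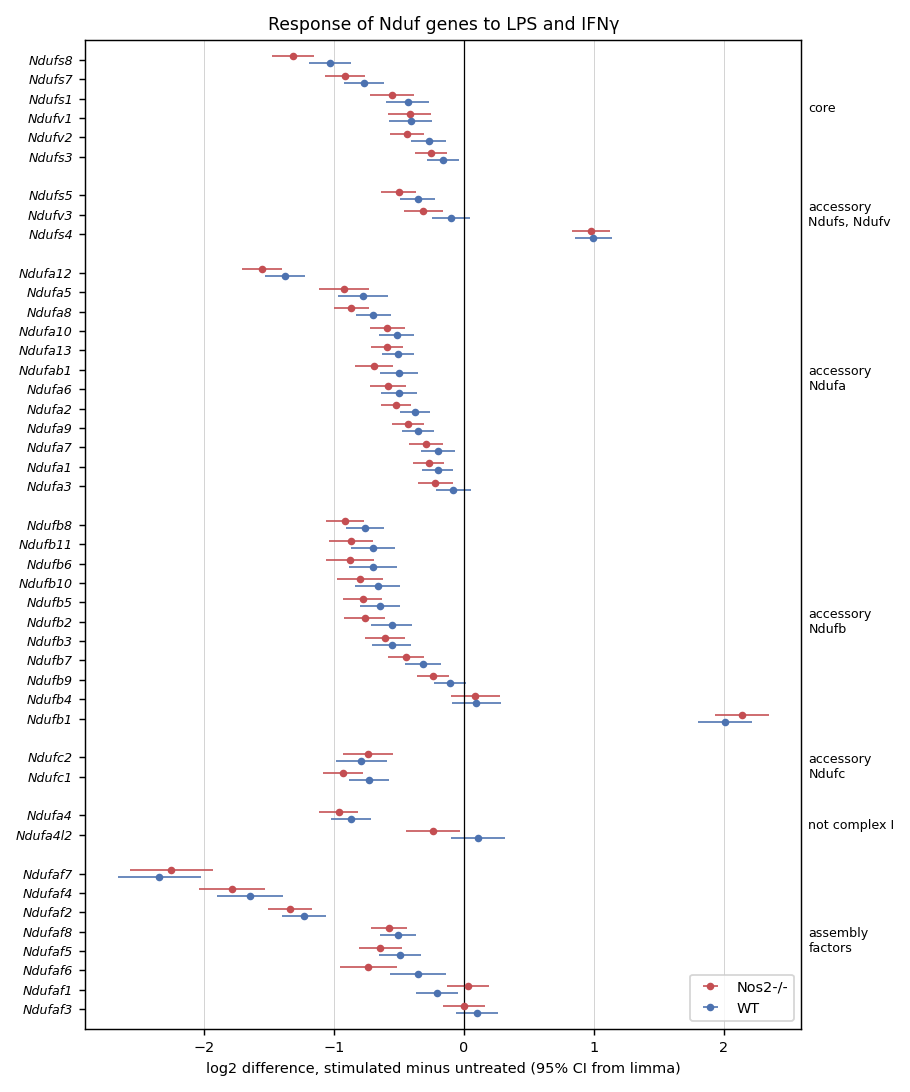
Log2 difference, stimulated minus untreated, of all 44 Nduf genes in Nos2-/- (red, upper) and WT (blue, lower) BMDMs, grouped by role, with 95% confidence intervals from limma. Ndufb1 and Ndufs4 lie to the right of 0 in both genotypes, and Ndufaf7, whose stimulated signals lie near the array medians, is plotted farthest to the left (-2.25 in Nos2-/- and -2.34 in WT cells).

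All 6 measured core subunits fell in both genotypes, with a median of -0.50 in Nos2-/- and -0.42 in WT cells. Ndufs8, which carries a pair of iron-sulfur clusters on the path to ubiquinone and to whose protein the study's methods list an antibody, changed most. Its signals were 10.03, 10.09 and 9.89 in Nos2-/- stimulated and 11.36, 11.24 and 11.36 in Nos2-/- untreated arrays, a fall of 1.32 on the log2 scale (SE 0.08, adjusted p = 2.61e-09). In WT arrays they were 10.36, 10.15 and 10.28 after stimulation and 11.21, 11.31 and 11.36 without it, a fall of 1.03 (SE 0.08, adjusted p = 3.78e-08). Stimulated and untreated arrays were far apart in both genotypes. Of the 6 Ndufs8 probe sets, 6 fell in Nos2-/- cells, by 0.54 to 1.5, and 5 fell in WT cells, by 1.03 to 1.22, the other one standing at -0.22 (adjusted p = 0.109).

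Ndufs1, the large iron-sulfur subunit of the NADH-oxidising module and likewise with an antibody in the methods, fell less. It had 8.92, 8.87 and 8.82 in Nos2-/- stimulated against 9.42, 9.33 and 9.51 in Nos2-/- untreated arrays, a change of -0.55 (SE 0.08, adjusted p = 2.59e-05). WT arrays gave 9.01, 8.83 and 9.04 after stimulation against 9.29, 9.41 and 9.48 without it, a change of -0.43 (SE 0.08, adjusted p = 0.000254). The groups did not overlap in either genotype. Of the others, Ndufs7, which holds the last iron-sulfur cluster before ubiquinone, changed by -0.91 in Nos2-/- and -0.77 in WT cells, and Ndufv1, which binds the flavin and NADH, by -0.42 and -0.41. Ndufv2 and Ndufs3, also of the electron path and its support, changed by -0.44 and -0.25 in Nos2-/- and by -0.27 and -0.16 in WT cells.

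Among the 12 accessory Ndufa subunits, all 12 fell in Nos2-/- and 11 in WT cells, with medians of -0.59 and -0.50. Ndufa12, an accessory subunit at the foot of the NADH module and a paralogue of Ndufaf2, fell most. Its signals were 10.18, 10.16 and 9.95 in Nos2-/- stimulated and 11.63, 11.67 and 11.67 in Nos2-/- untreated arrays, a change of -1.56 (SE 0.07, adjusted p = 2.23e-10). They were 10.22, 10.18 and 10.35 in WT stimulated and 11.62, 11.62 and 11.64 in WT untreated arrays, a change of -1.38 (SE 0.07, adjusted p = 8.75e-10). All 3 bright Ndufa12 probe sets fell in both genotypes, whereas a dim one (mean signal 3.66) gave 0.13 in Nos2-/- and 0.03 in WT cells and passed no test. Ndufab1, the mitochondrial acyl carrier protein, changed by -0.69 in Nos2-/- and -0.50 in WT cells. The smallest Ndufa change was that of Ndufa3, -0.22 (adjusted p = 0.00815) in Nos2-/- and -0.08 (adjusted p = 0.277) in WT cells.

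The 11 accessory Ndufb subunits, which sit in the membrane arm, divided into 9 that fell, 1 that rose and 1 not called in Nos2-/- cells, and 8, 1 and 2 of them in WT cells. Ndufb8, whose protein the study also blotted, had 10.55, 10.44 and 10.29 in Nos2-/- stimulated against 11.37, 11.34 and 11.32 in Nos2-/- untreated arrays, a change of -0.92 (SE 0.07, adjusted p = 3.56e-08). It had 10.61, 10.55 and 10.64 in WT stimulated against 11.39, 11.36 and 11.35 in WT untreated arrays, a change of -0.76 (SE 0.07, adjusted p = 2.74e-07). Stimulated and untreated arrays were again separate. Ndufc1 and Ndufc2, of the membrane arm too, changed by -0.93 and -0.74 in Nos2-/- and by -0.73 and -0.79 in WT cells, all called lower. The remaining called falls were smaller than that of Ndufb8 in Nos2-/- cells, and ran down to -0.23 in Nos2-/- (Ndufb9) and -0.32 in WT cells (Ndufb7). The Ndufb4 probe set was close to the floor (signal percentile 12.7) and gave 0.09 in Nos2-/- and 0.10 in WT cells without passing the test. Probe sets shared by Ndufb4 and its copies Ndufb4b and Ndufb4c, which are brighter, changed by -1.06 and -0.93 in Nos2-/- and by -0.94 and -0.76 in WT cells.

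Ndufb1, a small membrane-arm subunit, was the strongest riser. It had 9.13, 8.79 and 9.14 in Nos2-/- stimulated against 6.98, 6.78 and 6.87 in Nos2-/- untreated arrays, a rise of 2.14 or 4.41-fold (SE 0.10, adjusted p = 1.68e-10). It had 8.92, 8.84 and 8.98 in WT stimulated against 6.94, 6.98 and 6.80 in WT untreated arrays, a rise of 2.01 or 4.03-fold (SE 0.10, adjusted p = 3.59e-10). The stimulated arrays of both genotypes lay well above all untreated arrays, but only 1 probe set measured the gene.

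Ndufs4, an accessory subunit that stabilises the NADH module and whose loss in mice causes a fatal encephalopathy, was the other riser. Its signals were 10.06, 9.99 and 10.10 in Nos2-/- stimulated and 9.11, 9.04 and 9.06 in Nos2-/- untreated arrays, a rise of 0.98 (SE 0.07, adjusted p = 1.43e-08). They were 10.06, 9.93 and 10.15 in WT stimulated and 9.09, 9.01 and 9.03 in WT untreated arrays, a rise of 1.00 (SE 0.07, adjusted p = 1.32e-08). Groups did not overlap, but the probe sets of the gene disagreed. A second one rose by 1.07 in Nos2-/- and 0.92 in WT cells, a dim one by 0.83 in Nos2-/- cells (0.26 in WT cells, not called), and the last, with a mean signal of 6.24, changed by -0.33 in Nos2-/- (adjusted p = 0.0424) and -0.37 in WT cells (adjusted p = 0.0225). Ndufb2, whose chosen probe set changed by -0.76 in Nos2-/- and -0.56 in WT cells, likewise had a dim probe set that rose, by 0.47 and 0.30, and these 2 genes were the only ones with calls both ways. Over all 88 probe sets of the 44 genes, 5 rose and 70 fell in Nos2-/- cells, and 5 rose and 66 fell in WT cells.

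**Figure D2:**
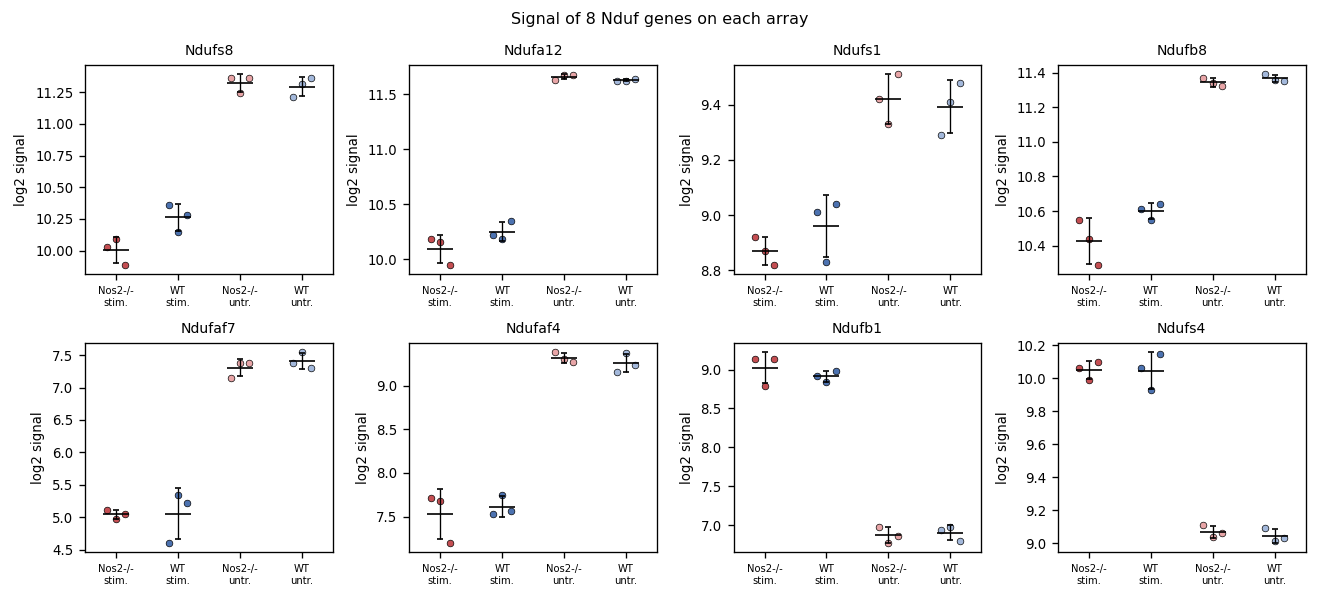
Log2 signal on each array (points) with group mean and SD (bars, n = 3) for 8 Nduf genes in Nos2-/- stimulated, WT stimulated, Nos2-/- untreated and WT untreated BMDMs, each panel on its own scale. The stimulated arrays lie below the untreated ones for Ndufs8, Ndufa12, Ndufs1, Ndufb8, Ndufaf7 and Ndufaf4 and above them for Ndufb1 and Ndufs4.

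Of the 8 Ndufaf assembly factors, 6 fell in Nos2-/- and 7 in WT cells, none rose, and the medians were -0.69 and -0.50. Ndufaf7, a mitochondrial arginine methyltransferase, had 5.11, 4.97 and 5.06 in Nos2-/- stimulated against 7.15, 7.38 and 7.38 in Nos2-/- untreated arrays, a change of -2.25 (SE 0.15, adjusted p = 9.15e-09). It had 4.61, 5.34 and 5.22 in WT stimulated against 7.37, 7.54 and 7.30 in WT untreated arrays, a change of -2.34 (SE 0.15, adjusted p = 6.69e-09). The groups were far apart, and the gene had a single probe set. Its stimulated signals lay near the array medians given above. That range also held the group means of the neutrophil granule genes Mpo (5.07 to 5.53) and Elane (5.22 to 5.32). Whether background signal limited the size of the Ndufaf7 change was not tested.

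Ndufaf4, which with Ndufaf3 builds the ubiquinone-reducing module, had 7.71, 7.68 and 7.20 in Nos2-/- stimulated against 9.38, 9.31 and 9.27 in Nos2-/- untreated arrays (change -1.79, SE 0.12, adjusted p = 9.76e-09). It had 7.53, 7.75 and 7.56 in WT stimulated against 9.16, 9.37 and 9.24 in WT untreated arrays (change -1.65, SE 0.12, adjusted p = 2.57e-08). These changes were larger than that of Ndufa12, the subunit that fell most. Both groups were separated by more than 1 log2 unit, and a second probe set changed by -2.24 and -2.12. Ndufaf2, which in human cells holds the place of NDUFA12 until late in assembly, had 6.19, 5.92 and 6.04 in Nos2-/- stimulated against 7.47, 7.36 and 7.33 in Nos2-/- untreated arrays (change -1.34, SE 0.08, adjusted p = 3.08e-09). WT arrays gave 6.03, 6.07 and 6.22 after stimulation against 7.33, 7.39 and 7.29 without it (change -1.23, SE 0.08, adjusted p = 8.13e-09). Ndufa12 and Ndufaf2, paralogues that take the same place in turn, both fell in both genotypes.

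Ndufaf5, which in human cells hydroxylates NDUFS7, had 6.50, 6.32 and 6.40 in Nos2-/- stimulated against 7.04, 7.05 and 7.06 in Nos2-/- untreated arrays, and 6.45, 6.44 and 6.68 in WT stimulated against 6.97, 7.08 and 6.99 in WT untreated arrays. The changes were -0.64 (adjusted p = 4.77e-06) and -0.49 (adjusted p = 7.11e-05) without overlap. Its partner Ndufaf8 had 9.32, 9.23 and 9.10 in Nos2-/- stimulated against 9.82, 9.79 and 9.77 in Nos2-/- untreated arrays, and 9.26, 9.25 and 9.32 in WT stimulated against 9.79, 9.78 and 9.79 in WT untreated arrays. Both genotypes again showed a clear separation, with changes of -0.57 (adjusted p = 2.69e-06) and -0.51 (adjusted p = 1.04e-05). Ndufaf8 was the only Nduf gene on chromosome 11, which also carries Nos2, and lay 1245 gene positions from Nos2 in the annotation.

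Ndufaf6, needed for the early membrane module, had 5.89, 5.64 and 5.44 in Nos2-/- stimulated against 6.47, 6.29 and 6.42 in Nos2-/- untreated arrays (change -0.74, adjusted p = 2.18e-05). WT arrays gave 5.90, 6.03 and 5.84 after stimulation against 6.23, 6.37 and 6.22 without it (change -0.35, adjusted p = 0.00857). The groups did not overlap, at signals near the median of all genes, and the WT call was lost with quantile normalization (-0.24, adjusted p = 0.073). Ndufaf1, which joins Ecsit, Acad9 and Tmem126b in the complex that assembles the membrane arm, had 8.30, 8.03 and 8.10 in Nos2-/- stimulated against 8.10, 8.11 and 8.13 in Nos2-/- untreated arrays, which overlapped (change 0.03, adjusted p = 0.751). In WT arrays it had 7.83, 7.95 and 7.98 after stimulation against 8.11, 8.07 and 8.20 without it, without overlap (change -0.21, adjusted p = 0.0312). That WT call was lost without WT stimulated replicate 1 (-0.16, adjusted p = 0.119), WT untreated replicate 1 (-0.21, adjusted p = 0.0595) or WT untreated replicate 3 (-0.17, adjusted p = 0.116), and with quantile normalization (-0.01, adjusted p = 0.87). Ndufaf3 had 9.06, 9.0 and 8.78 in Nos2-/- stimulated against 8.99, 8.87 and 8.97 in Nos2-/- untreated arrays, and 9.06, 9.01 and 9.05 in WT stimulated against 8.92, 8.92 and 8.97 in WT untreated arrays. Its changes of 0.00 (95% CI -0.16 to 0.16) and 0.10 (95% CI -0.06 to 0.26) passed no test.

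Of the pair outside complex I, Ndufa4 was called lower, with -0.97 in Nos2-/- and -0.87 in WT cells. Ndufa4l2, with a signal near the median of all genes, gave -0.24 (adjusted p = 0.0526) in Nos2-/- and 0.11 (adjusted p = 0.339) in WT cells.

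Promoter sequences are shown for both risers, for the faller Ndufb8 and for Ndufaf4, to set genes that moved in opposite directions side by side. RefSeq windows of build GRCm38.p6, 300 bases running from 250 before to 50 after each start, were at hand for 39 of the 44 genes (41 windows), and for none of Ndufa2, Ndufa4l2, Ndufaf6, Ndufb9 and Ndufs1. Capitals mark the words searched on both strands, GCGCATGC for NRF1, CCGGAAGT for ETS factors such as GABP, AAGATGGC for YY1 and TGACGTCA for CREB, written 5′ to 3′ on the gene's strand. The windows are chr13:114388045-114388344 (minus strand) for Ndufs4, chr12:101975689-101975988 (minus strand) for Ndufb1, chr19:44555393-44555692 (minus strand) for Ndufb8 and chr4:24897833-24898132 (plus strand) for Ndufaf4.
Ndufs4: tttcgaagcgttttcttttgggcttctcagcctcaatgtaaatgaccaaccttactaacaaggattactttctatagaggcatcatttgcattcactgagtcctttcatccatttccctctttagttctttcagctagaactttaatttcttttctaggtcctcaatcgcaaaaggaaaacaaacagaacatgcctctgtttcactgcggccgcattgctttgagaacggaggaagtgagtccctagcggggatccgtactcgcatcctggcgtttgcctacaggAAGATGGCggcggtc
Ndufb1: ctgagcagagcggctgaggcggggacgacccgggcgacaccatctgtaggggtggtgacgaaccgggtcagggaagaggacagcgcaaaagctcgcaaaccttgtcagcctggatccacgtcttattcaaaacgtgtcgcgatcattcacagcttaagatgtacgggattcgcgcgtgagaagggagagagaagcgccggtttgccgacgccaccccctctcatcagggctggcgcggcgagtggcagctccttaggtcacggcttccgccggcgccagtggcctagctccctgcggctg
Ndufb8: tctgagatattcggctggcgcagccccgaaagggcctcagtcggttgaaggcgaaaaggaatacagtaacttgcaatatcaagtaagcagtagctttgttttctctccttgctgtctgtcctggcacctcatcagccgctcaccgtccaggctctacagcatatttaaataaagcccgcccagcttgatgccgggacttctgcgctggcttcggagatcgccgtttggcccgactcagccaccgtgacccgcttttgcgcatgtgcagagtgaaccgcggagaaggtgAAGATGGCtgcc
Ndufaf4: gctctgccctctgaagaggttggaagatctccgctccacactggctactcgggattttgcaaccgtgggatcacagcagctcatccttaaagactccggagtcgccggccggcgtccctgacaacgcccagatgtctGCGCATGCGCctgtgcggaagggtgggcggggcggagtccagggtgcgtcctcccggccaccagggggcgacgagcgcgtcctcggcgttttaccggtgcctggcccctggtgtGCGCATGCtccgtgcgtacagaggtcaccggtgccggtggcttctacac

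The YY1 word stood in 7 of 41 windows (17.1%, against 2.75% of 32851 promoters), those of Ndufa3, Ndufa9, Ndufaf8, Ndufb8, Ndufc1, Ndufs4 and Ndufs7, always on the plus strand and 11 to 39 bases past the start. The riser Ndufs4 (36 bases past the start) and the faller Ndufb8 (39 bases past it) both held it. The word contains ATG, so some matches may be start codons, which was not tested. The NRF1 word stood in 4 windows (9.8%, against 2.71% of all promoters), those of Ndufa6, Ndufa8, Ndufaf4 and Ndufaf5, with 3 matches in Ndufaf4, 2 of which overlap on opposite strands. The CREB word stood in 2 windows (4.9%, against 1.79%), Ndufa10 and Ndufb2, and the ETS word in 1 (2.4%, against 3.89%), Ndufs3. The windows of Ndufb1 and of the other genes held none of these letters, which says nothing of whether the factors bind.

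The other genes of complex I assembly moved the same way. Of 12 further assembly factors, 12 fell in Nos2-/- and 10 in WT cells, and none rose. Nubpl, which delivers iron-sulfur clusters to complex I, changed by -1.54 in Nos2-/- and -1.28 in WT cells, and Dmac1, a membrane-arm factor, by -1.36 and -1.37. Tmem126b and Timmdc1, both membrane-arm factors, changed by -1.14 and -0.59 in Nos2-/- and by -1.07 and -0.86 in WT cells. ND5, the only mitochondrially encoded subunit measured, changed by -0.81 in Nos2-/- and -0.76 in WT cells. In complex II, the succinate dehydrogenase that also feeds ubiquinone, 6 of 8 genes fell in both genotypes, led by the assembly factors Sdhaf3 (-1.89 and -1.52) and Sdhaf1 (-1.22 and -1.12), while 1 rose in Nos2-/- and 2 in WT cells. Sdhaf2 rose in both (0.27 and 0.35), and the subunit Sdhd gave 0.08 (adjusted p = 0.292) in Nos2-/- cells and rose by 0.21 in WT cells. Genes used as a gauge of mitochondrial mass fell in 8 of 9 cases in Nos2-/- and 7 of 9 in WT cells, among them the chaperone Hspd1 (-1.09 and -0.92) and the prohibitin Phb2 (-1.02 and -0.95). As background for these counts, 28.2% of all genes fell and 26.3% rose in Nos2-/- cells, and 28.4% fell and 29.6% rose in WT cells. Among genes at or over the median signal, 48.7% fell in Nos2-/- and 49.5% in WT cells.

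Of 13 regulators of respiratory chain genes, 2 rose and 8 fell in Nos2-/- cells, and 1 rose and 9 fell in WT cells. Of all genes, 26.3% rose and 28.2% fell in Nos2-/- cells, and 29.6% rose and 28.4% fell in WT cells. Of genes at or over the median signal, 48.7% and 49.5% fell in Nos2-/- and WT cells. Esrra, a nuclear receptor of mitochondrial genes, rose by 0.89 in Nos2-/- and 0.76 in WT cells, and Gabpb1, the activating partner of Gabpa, rose by 0.36 in Nos2-/- cells and gave 0.08 (adjusted p = 0.495) in WT cells. Gabpa, the DNA-binding part of GABP, changed by -0.74 and -0.99, and the mitochondrial transcription genes Polrmt and Tfb1m by -0.87 and -0.73 in Nos2-/- and by -1.02 and -1.06 in WT cells.

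**Figure D3:**
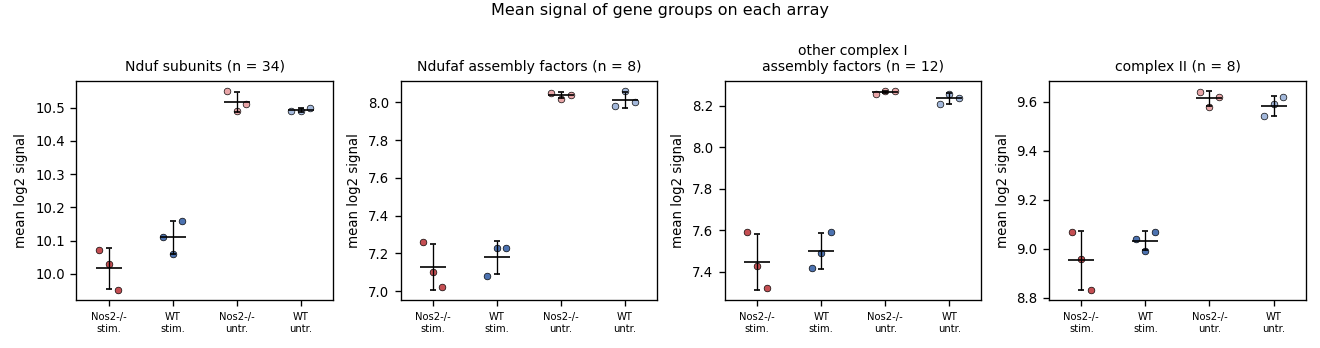
Mean log2 signal of 4 gene groups on each array (points) with group mean and SD (bars, n = 3), for Nduf subunits, Ndufaf and other complex I assembly factors, and complex II genes, each panel on its own scale. For the subunits the Nos2-/- stimulated arrays lie between 9.95 and 10.07, the WT stimulated between 10.06 and 10.16, and the untreated between 10.49 and 10.55 (Nos2-/-) and 10.49 and 10.50 (WT).

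Loss of NOS2 left the stimulated level of single Nduf genes without a called change. In Nos2-/- stimulated against WT stimulated cells, limma called 0 of 34 subunits and 0 of 8 assembly factors (1.03% of all genes were called higher and 1.91% lower). At an unadjusted p under 0.05, 0 subunits were higher and 7 lower (1223 and 1517 of all genes), and 1 assembly factor was higher and 1 lower. The subunits nevertheless leaned to one side, with 31 of 34 below 0 (9481 of the 18193 genes were) and a median of -0.10 (-0.01 over all genes). Signals of the groups did not overlap for 13 subunits (38.2%, against 17.1% of all genes). The subunits were measured on the same arrays, so these 34 values are not independent of each other.

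Ndufs8 came nearest, with the values given above, at -0.26 (SE 0.08, 95% CI -0.42 to -0.09, adjusted p = 0.104) and no overlap of the groups. It was called lower when the variance followed an intensity trend (adjusted p = 0.026) and when only genes at or over the median signal were tested (adjusted p = 0.0427). Ndufb2 stood at -0.22 (SE 0.07, adjusted p = 0.156). Ndufb8 gave -0.18 (95% CI -0.32 to -0.03, adjusted p = 0.224) without overlap, and Ndufs1 -0.09 (95% CI -0.26 to 0.07, adjusted p = 0.635) with overlap. Both estimates were smaller than the changes of these genes with stimulation. Ndufs4 and Ndufb1 gave 0.00 (95% CI -0.14 to 0.15) and 0.10 (95% CI -0.10 to 0.31).

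Ndufaf1 was the only assembly factor above 0, at 0.22 (SE 0.08, adjusted p = 0.160), and its groups did not overlap, while Ndufaf6 stood at -0.26 (SE 0.10, adjusted p = 0.226). Without Nos2-/- stimulated replicate 1 Ndufaf6 (-0.38, adjusted p = 0.0474) and Ndufb2 (-0.29, adjusted p = 0.0499) were called lower. The other Ndufaf differences lay between -0.12 and -0.01.

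The size of the lean of the subunits depended on single arrays of both genotypes. Their mean signal was 10.07, 10.03 and 9.95 in Nos2-/- stimulated against 10.11, 10.06 and 10.16 in WT stimulated arrays, groups that overlapped narrowly. Nos2-/- stimulated replicate 3 was the lowest of its group in 29 of 34 subunits, and WT stimulated replicate 2 in 23 of 34. Leaving out each array in turn moved the median between -0.13 and -0.06. It was -0.06 without Nos2-/- stimulated replicate 3 and -0.07 without WT stimulated replicate 3, with 29 of 34 subunits below 0 in each case. Without WT stimulated replicate 2 it was -0.13.

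**Figure D4:**
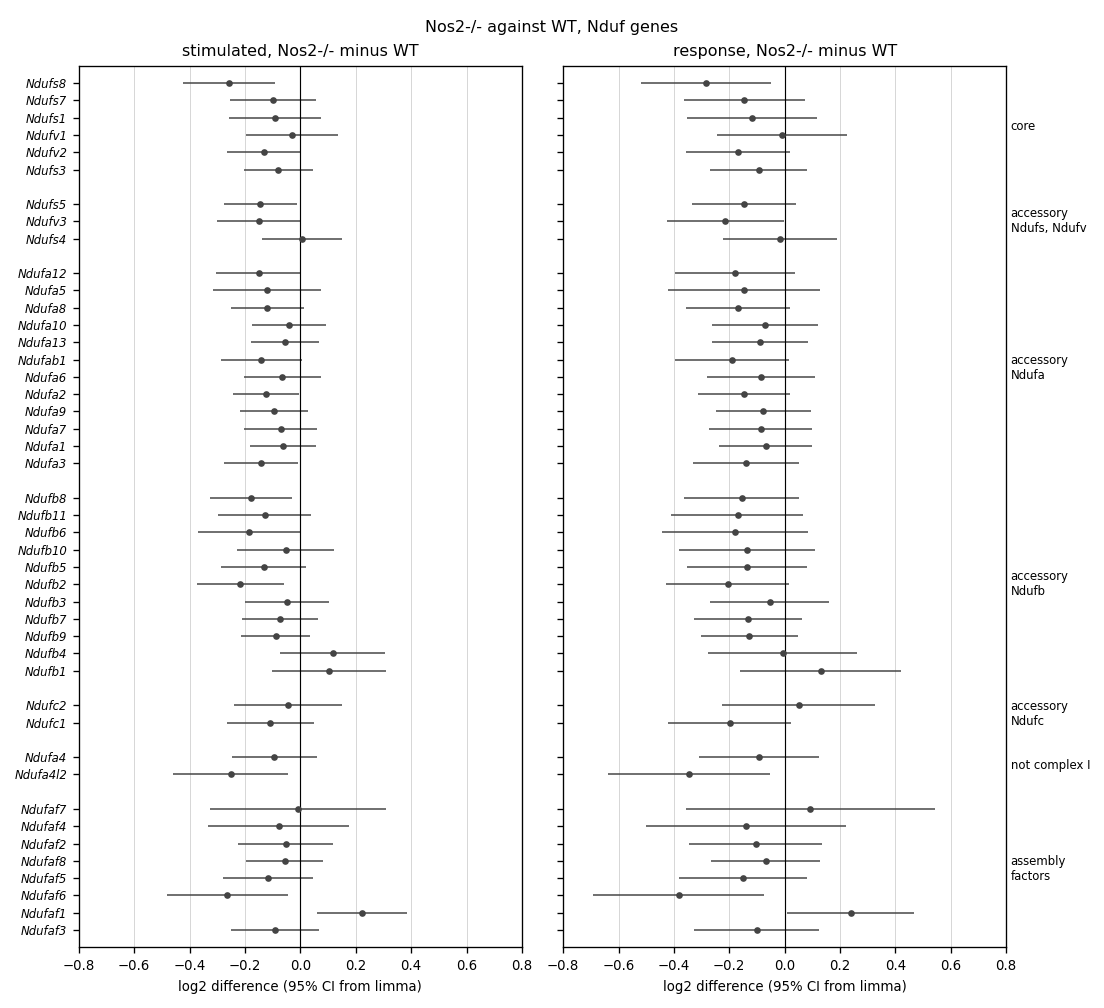
Log2 difference of the 44 Nduf genes between Nos2-/- and WT BMDMs with 95% confidence intervals from limma, for stimulated cells (left) and for the response to stimulation (right). Most points lie slightly below 0, Ndufs8 at -0.26 and -0.28 for stimulated cells and response, and none is called.

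Without stimulation the genotypes gave near-equal levels. In Nos2-/- untreated against WT untreated cells limma called 0 of 44 Nduf genes (0.0055% of all genes in each direction), and none had an unadjusted p under 0.05. Differences ran from -0.10 to 0.12 for subunits and for assembly factors alike, 26 of 34 subunits were above 0, and the groups did not overlap for 3 of 34 subunits (8.82%, against 12.6% of all genes). The mean subunit signal was 10.55, 10.49 and 10.51 in Nos2-/- untreated and 10.49, 10.49 and 10.50 in WT untreated arrays. Ndufaf8, on the chromosome of the targeted gene, gave 0.01 (95% CI -0.13 to 0.15).

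Responses of the genotypes were close to each other gene by gene. Across the 44 genes they had a Pearson r of 0.99 and a Spearman rho of 0.96 (0.98 and 0.91 over all genes tested), with no arrays in common, over genes that are not independent replicates. Without Ndufb1 and Ndufs4 the values for 42 genes were 0.98 and 0.96. In 40 of the 44 genes the Nos2-/- response was the lower of both, by up to 0.38. The same held for 9675 of the 18193 genes, by any amount.

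The test of that difference itself called nothing. The interaction gave 0 of 34 subunits and 0 of 8 assembly factors (0.302% of all genes were called with a higher and 0.676% with a lower response in Nos2-/- cells). At an unadjusted p under 0.05, 0 subunits were higher and 2 lower (Ndufs8 at -0.28 and Ndufv3 at -0.21), compared with 868 higher and 957 lower of all 18193 genes, and 1 assembly factor was higher (Ndufaf1, 0.24, adjusted p = 0.483) and 1 lower (Ndufaf6, -0.38, adjusted p = 0.352). The subunit median was -0.14, against -0.01 for all genes. It shares the stimulated arrays with the comparison of stimulated genotypes, and stood at -0.09 without Nos2-/- stimulated replicate 3. Ndufs1 differed by -0.12 (95% CI -0.35 to 0.12) and Ndufb8 by -0.16 (95% CI -0.36 to 0.05). The 12 further assembly factors, ND5, the 8 complex II genes, the 13 regulators and the 9 mass genes had no call between genotypes, with or without stimulation, and none in the interaction.

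Complex I genes whose probe sets were all shared with a gene copy were set apart from the counts. The probe set of Ndufs6 and Ndufs6b changed by -0.48 in Nos2-/- and -0.33 in WT cells. The bright probe set of Ndufa11 and Ndufa11b changed by -0.31 (adjusted p = 0.00173) in Nos2-/- and gave -0.12 (adjusted p = 0.155) in WT cells.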

How the data were processed

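The methods state that the authors processed the scans in Partek Genomics Suite with RMA, which background-corrects, quantile-normalizes and summarises probes, and the deposited values are the resulting log2 signals, 1 per probe set (45101, of which 64 are controls). Quantile normalization gives arrays alike distributions, so a shift of all transcripts cannot be seen. Partek's version is not given in the sources used here. Of the probe sets, 34945 named 1 gene, 932 several and 9160 none in the platform annotation. The brightest single-gene probe set stood for each of 18193 genes. With no counts, 3 arrays per group limit the precision. A mean per group was fitted over the 12 arrays with limma 3.58.1 in R 4.3.3 (lmFit, eBayes, two-sided), with Benjamini-Hochberg adjustment over all genes and calls at 0.05, after testing on simulated data. No column of another sample was present. The methods' own rule, 1.5-fold with an adjusted p under 0.5, was an alternative, as were other scalings, probe set choices, variance models, a replicate block and leaving out arrays. Members and lists were chosen with earlier results of these data known. Values for every array are given for the called genes with the 5 largest rises and 5 largest falls, for Ndufs1 and Ndufb8 and for all Ndufaf genes, and for at most 4 called genes of each other list the difference is given.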

Additional observations from a re-analysis of the deposited data

How the results depend on the processing

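The 25 counts and medians of subunits and assembly factors were recomputed under 23 settings (575 values), of which 559 stayed and 16 moved. A value stayed if within 1.5 times the count or, for a median, within 0.043. That is the SD between replicate arrays of the mean subunit signal. Many values could not move, so the share that stayed overstates how firm the results are. Updated gene symbols changed no value, and variance models and the replicate block changed no median. A left-out array changed no median of comparisons without its group. In Nos2-/- stimulated against WT stimulated cells, 1 subunit was called lower, in place of 0, with no moderation of the variance (Ndufa2, -0.12, adjusted p = 0.0308), with an intensity trend (Ndufs8) and with dimmer genes left out (Ndufs8). Centring each array on its median gave a WT median of -0.55, averaging a gene's probe sets gave -0.49 in Nos2-/- and -0.37 in WT cells, and dropping the less specific probe sets (_s_at, _x_at) gave -0.53 and -0.42. With quantile normalization 1 assembly factor was called higher in Nos2-/- (Ndufaf1, 0.19) and 1 in WT cells (Ndufaf3, 0.21). At 1.5-fold with an adjusted p under 0.5, 17 subunits fell in Nos2-/- and 12 in WT cells, and 3 assembly factors fell in WT cells. Of all genes, 17.2% fell by that rule in Nos2-/- and 16.9% in WT cells. Without the _s_at and _x_at probe sets Ndufa12 rested on its dim probe set and its change turned to 0.131 in Nos2-/- and 0.026 in WT cells.

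Leaving out 1 array at a time, subunits called lower ranged from 0 to 1 and assembly factors called lower from 0 to 1 in stimulated Nos2-/- against WT cells, the 1 in both cases without Nos2-/- stimulated replicate 1. Medians ranged from -0.13 to -0.06 there, from -0.165 to -0.087 (without Nos2-/- stimulated replicate 3) for the difference between responses, from -0.61 to -0.56 for the Nos2-/- response, from -0.51 to -0.48 for the WT response and from 0.01 to 0.04 without stimulation. Subunits called lower by stimulation ranged from 31 to 31 in Nos2-/- and from 26 to 28 in WT cells, and subunits called higher from 2 to 3 in Nos2-/- and from 2 to 2 in WT cells. Of 58 single-gene results, 1324 recomputed values split into 1307 that kept their call, 12 that lost it, 3 that gained one and the 2 reversed for Ndufa12. These too include settings that could not change a gene's difference.

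The deviations of 18 same-numbered pairs of arrays correlated at -0.26 to 0.21, only 2 of them over 0.1, and those of other pairs at -0.17 to 0.27. Same-numbered pairs did not stand out, but with 3 arrays per group this cannot exclude that the replicate numbers mark a shared preparation. With the replicate block 31 subunits fell in Nos2-/- and 28 in WT cells, the same counts as without it.

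The number of arrays limits the precision. For Ndufs1 between stimulated genotypes, the data are compatible with any difference in its interval (-0.26 to 0.07). The Ndufb4 probe set is near the array's floor.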
